A study of Homo sapiens with 3 samples.

Results

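Genes of glucose breakdown and of the response to low oxygen were followed in HEK293T cells, a human embryonic kidney line that makes the large T antigen of SV40. The members were chosen by gene symbol: 32 genes were listed, of which 22 act in glucose uptake, in glycolysis or in its regulation and 10 are other known targets of the hypoxia response. On the arrays 31 of them were found, with 56 of the 19070 probe sets that carried a single gene symbol, and every one of the 56 lay above background on at least 1 array. The glycolytic genes had 42 of these sets and 9 of the other hypoxia targets had 14. CA9 was not analysed here.

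The question was which genes differ in expression between guide RNAs that send the same CRISPR activator to different places. All cells were transfected with dCas9VP160, a Cas9 without nuclease activity fused to an activation domain, so the controls carried the activator as well. They received sgIL1RN1~3, aimed at the promoter of IL1RN, or sgTetO, aimed at the TetO promoter, or sgTetOmut, a mutant of sgTetO meant to have no target. The label sgIL1RN1~3 reads as guides 1 to 3 for IL1RN, whereas each control label names 1 guide. The arrays may thus differ in the number of guides as well. Each label was measured on 1 array, which gives no replicate error, no p-value and no test. The difference between the 2 control arrays is therefore the available scale for how far arrays differ. It leaves out any property particular to the sgIL1RN1~3 array.

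Glycolysis splits glucose into pyruvate in the cytosol and yields ATP without oxygen. Under low oxygen the transcription factor HIF1 is stabilised, binds short DNA elements with the core ACGTG or GCGTG, and raises glucose transporters, most glycolytic enzymes and genes of vessel growth, mitophagy and collagen maturation. HIF1 activity also turns pyruvate away from mitochondria, through PDK1, and towards lactate, through LDHA. Fast-growing lines such as HEK293T break down glucose to lactate even with oxygen present.

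The upstream regions of a few members are printed because they belong to the gene with the largest difference in these data (ENO1), to a neighbouring step with unequal probe sets (PGK1), and to a textbook HIF1 target that differed little (LDHA). Each is the 250 bases before the gene's start in RefSeq (GRCh38.p14), read 5′ to 3′ on the gene's strand, with matches to ACGTG or GCGTG on either strand in capitals. The ENO1 region lies on the minus strand at chr1:8878687-8878936, the PGK1 region on the plus strand at chrX:78103998-78104247 and the LDHA region on the plus strand at chr11:18394313-18394562.
ENO1: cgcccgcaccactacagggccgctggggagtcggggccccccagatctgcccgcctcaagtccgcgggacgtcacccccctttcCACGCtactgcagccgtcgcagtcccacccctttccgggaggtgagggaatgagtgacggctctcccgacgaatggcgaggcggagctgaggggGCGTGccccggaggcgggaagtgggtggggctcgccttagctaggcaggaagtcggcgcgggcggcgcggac
PGK1: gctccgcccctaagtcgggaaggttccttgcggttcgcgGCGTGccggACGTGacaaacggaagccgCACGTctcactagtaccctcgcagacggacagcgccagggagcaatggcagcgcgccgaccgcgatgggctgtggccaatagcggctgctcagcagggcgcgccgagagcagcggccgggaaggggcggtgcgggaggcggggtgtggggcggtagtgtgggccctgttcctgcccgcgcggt
LDHA: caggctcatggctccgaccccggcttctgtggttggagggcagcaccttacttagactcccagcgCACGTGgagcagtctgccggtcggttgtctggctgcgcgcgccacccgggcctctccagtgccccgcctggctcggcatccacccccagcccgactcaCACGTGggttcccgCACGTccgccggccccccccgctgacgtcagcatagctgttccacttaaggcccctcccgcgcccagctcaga
In these windows ENO1 had 2 matches, PGK1 had 3 and LDHA had 5, where a palindromic CACGTG counts on both strands. Of the 27 members with an upstream region in the table, 16 held at least 1 match, among them HK2, ALDOA, ALDOC, GAPDH, ENO2, BNIP3 and DDIT4, and SLC2A1, PKM, TPI1 and PGAM1 held none. The share over all 35116 promoters was 43.2%, and 54.5% over the 11534 promoters of genes measured above background. BNIP3L, NDRG1, SLC2A3 and VEGFA were not matched. A match is a run of letters and does not show that a factor binds there. A gene without a match in its 250 bases may hold a match elsewhere, since other sequence was not searched.

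The array with sgIL1RN1~3 had the highest value for most members. Of the 56 sets, 44 were above both control arrays (78.6%), where 41% of all 14288 named sets above background were, and 5 were below both (LDHA, P4HA1 and 1 set each of PKM, BNIP3 and VEGFA), where 33% of all sets were. The median difference over the members was 0.27 log2 units over sgTetO and 0.18 over sgTetOmut, beside 0.03 and 0.00 for all named sets. Members were chosen with earlier results of these data known, and their 56 sets come from 31 genes, so the sets are not independent. The differences were small. At a limit of 0.32 log2 units, 15 sets were above both controls, against 7.94% of all sets, and 0 were below both, against 5.33% of all sets. At 1.5-fold (0.58 log2 units), 3 were above both, where the share of all sets was 1.41%, and 0 below, where it was 0.959%. In bulk RNA more cells with a higher level and more RNA per cell cannot be told apart. Both comparisons share the sgIL1RN1~3 array, and no value here separates its guides from other properties of that array.

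A property of that array moved with these values. The chip carries 3 sets along the transcript of GAPDH and 3 along that of ACTB (beta-actin), which report how the signal changes with distance from the 3′ end. On sgIL1RN1~3 the ACTB sets differed from the control mean by 0.06 at the 3′ end, 0.67 in the middle and 0.88 at the 5′ end, and the GAPDH sets by 0.01, 0.56 and 0.75. The signal far from the 3′ end was thus higher on sgIL1RN1~3 for both transcripts, by more than most members differed. The controls were closer to each other: sgTetO minus sgTetOmut was -0.13 at the 5′ set of ACTB and -0.18 at that of GAPDH. Its part in the results below was not tested, since the position of the other sets along their transcripts is not given in the sources used here. Without the 3 chip sets of GAPDH, 42 of 53 member sets were highest on sgIL1RN1~3 and 2 were at least 1.5-fold above both controls.

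The enolase step stood furthest apart. ENO1, the general enolase that makes phosphoenolpyruvate, had 3 sets of unequal difference. Set 217294_s_at read 8.26 on sgIL1RN1~3, 6.97 on sgTetO and 7.05 on sgTetOmut, a difference of 1.29 and 1.21 log2 units, which is 2.32-fold over the higher control. It was the 1 member set at least 2-fold above both controls, a limit passed by 0.07% of all named sets. Set 216554_s_at read 10.14, 9.08 and 9.25 on sgIL1RN1~3, sgTetO and sgTetOmut, which is 1.05 and 0.89 higher. Set 201231_s_at, the brightest, read 10.84, 10.32 and 10.36 in the same order and was 0.52 and 0.49 higher, short of 1.5-fold. The 2 sets with the larger differences are annotated to one sequence record and 201231_s_at to another, and the controls differed from each other by -0.07, -0.17 and -0.04 at the 3 sets. ENO2, the enolase typical of neurons, had 1 set at 10.18 on sgIL1RN1~3, 9.66 on sgTetO and 9.79 on sgTetOmut, or 0.52 and 0.39 higher.

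**Figure D1:**
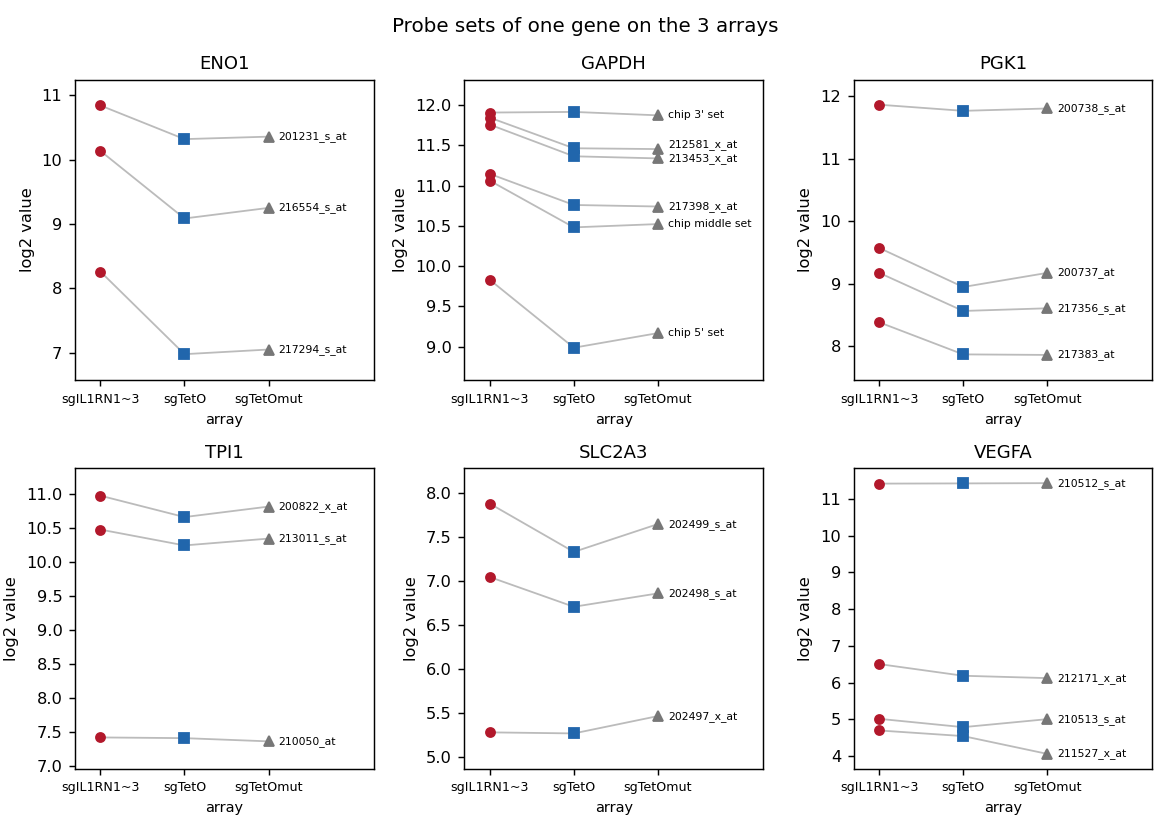
Log2 value (y axis) of every probe set of 6 genes on the sgIL1RN1~3, sgTetO and sgTetOmut arrays (x axis), with a line for each set and 1 array for each guide label. All 3 ENO1 sets were highest on sgIL1RN1~3, whereas the 3′ chip set of GAPDH and set 210512_s_at of VEGFA were level.

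GAPDH and PGK1, the enzymes before and at the first ATP-forming step, also had unequal sets. The 3 regular GAPDH sets, 213453_x_at, 217398_x_at and 212581_x_at, were 0.38 to 0.39 above sgTetO and 0.39 to 0.42 above sgTetOmut. The chip sets of the same gene spanned that range. The 5′ set read 9.83 on sgIL1RN1~3, 8.99 on sgTetO and 9.17 on sgTetOmut and was the third member set past 1.5-fold, by 0.84 and 0.66, whereas the 3′ set read 11.91, 11.92 and 11.87 on these arrays, a difference of -0.01 and 0.03. For PGK1, set 217356_s_at read 9.17 on sgIL1RN1~3, 8.56 on sgTetO and 8.60 on sgTetOmut, and set 200737_at read 9.57, 8.95 and 9.17. These were 0.61 and 0.57, and 0.63 and 0.40, above sgTetO and sgTetOmut. Set 217383_at was 0.52 above each control, and the brightest set, 200738_s_at, was 0.10 and 0.06 above them. GAPDH, PGK1, ALDOA and ENO1 have processed pseudogenes or close relatives, and sets ending in _x_at or _s_at can share transcripts.

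The last step before lactate split by set. PKM, pyruvate kinase, read 11.36 on sgIL1RN1~3, 10.66 on sgTetO and 10.82 on sgTetOmut by set 201251_at, 0.70 and 0.54 higher. Its set 213700_s_at read 5.34, 5.54 and 5.60 on these arrays, 0.19 lower than on sgTetO and 0.26 lower than on sgTetOmut. PGAM1, phosphoglycerate mutase, was nearly level at 12.09, 12.03 and 12.05 on sgIL1RN1~3, sgTetO and sgTetOmut. Of the 17 sets of the later steps from GAPDH to PKM, 15 were highest on sgIL1RN1~3 and 1 was lowest there. The 17 sets came from 6 genes, with 6 sets for GAPDH and 4 for PGK1, and their median difference from the control mean was 0.50. They made up 13 of the 15 member sets at least 0.32 log2 units above both controls. The other 2 were those of PFKFB4 and DDIT4. By the brightest set of each gene, the later steps were less even. Their differences from the control mean were then 0.01 for GAPDH, 0.08 for PGK1, 0.05 for PGAM1, 0.50 for ENO1, 0.45 for ENO2 and 0.62 for PKM.

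Counted over sets, the earlier steps had smaller and more even differences, a contrast that was not tested. By the brightest set of each gene they ran from 0.01 (HK2) to 0.33 (ALDOC) over the control mean. The later steps then ran from 0.01 (GAPDH) to 0.62 (PKM). Of the 14 sets from hexokinase to triose phosphate isomerase, 12 were highest on sgIL1RN1~3 and 0 lowest, with a median of 0.24 over the control mean and a range of -0.04 to 0.33. ALDOA, the main aldolase, was 0.32 above each control by set 200966_x_at and 0.21 above each by set 214687_x_at, and each of these sets held the same value on both controls. ALDOC, the brain aldolase, was 0.34 above sgTetO and 0.31 above sgTetOmut. GPI, glucose phosphate isomerase, was 0.44 and 0.20 above them, and PFKP, a phosphofructokinase, 0.36 and 0.23. The other phosphofructokinases followed, with PFKL at 0.25 and 0.33 and at 0.27 and 0.26 by its 2 sets, and PFKM at 0.16 and 0.14. HK1, the general hexokinase, was 0.30 and 0.17 above sgTetO and sgTetOmut. HK2, the hypoxia-responsive hexokinase, was above both controls by neither set: its brighter set read 11.21 on sgIL1RN1~3, 11.13 on sgTetO and 11.27 on sgTetOmut, and its other set 6.54, 6.63 and 6.54. TPI1, triose phosphate isomerase, was 0.31 and 0.16, 0.23 and 0.13, and 0.01 and 0.06 above the controls by its 3 sets.

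**Figure D2:**
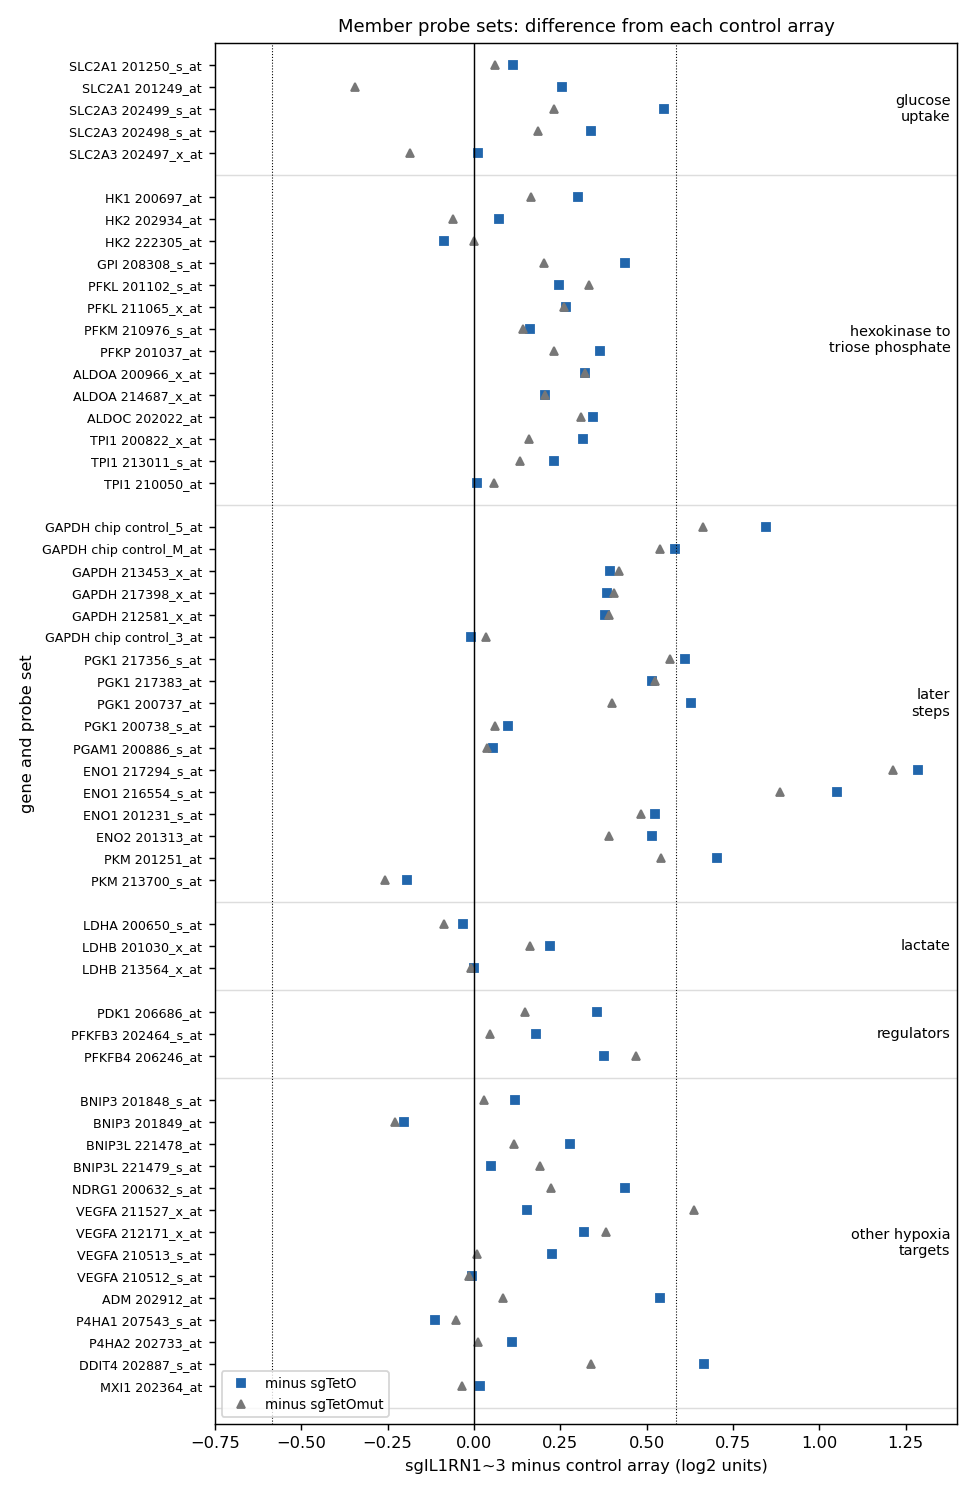
Difference in log2 units (x axis) of the sgIL1RN1~3 array from sgTetO (squares) and from sgTetOmut (triangles) for each of the 56 member probe sets (y axis), grouped by role, with dotted lines at 1.5-fold. The later steps reach 1.29 at ENO1, while the sets of LDHA, HK2, MXI1 and P4HA1 lie near 0.

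By the medians over sets, lactate formation and glucose uptake differed less than the later steps, a contrast that was not tested. LDHA, which turns pyruvate into lactate, read 12.11 on sgIL1RN1~3, 12.14 on sgTetO and 12.19 on sgTetOmut, and was thus lowest on the array where ENO1 was highest. LDHB, which favours the reverse reaction, was 0.22 and 0.16 above sgTetO and sgTetOmut by 201030_x_at and 0.00 and -0.01 by 213564_x_at. SLC2A1, the basal glucose transporter GLUT1, read 6.80, 6.69 and 6.74 on sgIL1RN1~3, sgTetO and sgTetOmut by its brighter set. Its other set, 201249_at, was above background on sgTetOmut alone. SLC2A3, the transporter GLUT3, read 7.88 on sgIL1RN1~3, 7.33 on sgTetO and 7.65 on sgTetOmut by 202499_s_at, 0.55 and 0.23 higher. Set 202498_s_at gave 0.34 and 0.19, and 202497_x_at gave 0.01 and -0.19.

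The enzymes that regulate the flow were higher by varied amounts. PDK1, the kinase that shuts pyruvate dehydrogenase, read 4.94 on sgIL1RN1~3, 4.58 on sgTetO and 4.79 on sgTetOmut. PFKFB3 and PFKFB4 set the level of fructose 2,6-bisphosphate, the activator of phosphofructokinase. PFKFB3 read 12.76, 12.58 and 12.71 on sgIL1RN1~3, sgTetO and sgTetOmut, 0.18 and 0.05 higher. PFKFB4 read 3.67 on sgIL1RN1~3 and was not above background on the controls (3.29 on sgTetO and 3.20 on sgTetOmut). Against the highest background set it was at least 1.20-fold above sgTetO and at least 1.30-fold above sgTetOmut, and by the first bound (0.27 log2 units) it would not count among the 15 sets past 0.32.

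The other hypoxia targets were less far from the controls than the glycolytic sets. Of their 14 sets, 10 were highest on sgIL1RN1~3 and 3 lowest, and 34 and 2 of the 42 glycolytic sets were. Their median difference from the control mean was 0.12, beside 0.26 for the glycolytic sets and 0.02 for all named sets. With sgTetOmut alone as the control it was 0.06, beside 0.20 for the glycolytic sets, and with the brightest set of each gene it was 0.06, beside 0.25. With the mean of all sets of each gene it was 0.16, beside 0.24. The difference between both groups was not tested.

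Among them, DDIT4, a stress-induced inhibitor of mTORC1, read 10.54 on sgIL1RN1~3, 9.87 on sgTetO and 10.20 on sgTetOmut, 0.67 and 0.34 higher. ADM, the vasodilator peptide adrenomedullin, read 8.06, 7.52 and 7.97 in the same order, so that its difference of 0.54 from sgTetO stood beside 0.08 from sgTetOmut. NDRG1, a stress-responsive protein, was 0.44 and 0.22 higher, at 9.88 on sgIL1RN1~3 against 9.44 on sgTetO and 9.65 on sgTetOmut. For ADM and DDIT4 the controls differed from each other by -0.45 and -0.33, as much as or nearly as much as sgIL1RN1~3 differed from one of them.

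VEGFA, the main growth factor for blood vessels, depended on the set. Its brightest set, 210512_s_at, was level at 11.41 on sgIL1RN1~3, 11.42 on sgTetO and 11.42 on sgTetOmut. Set 212171_x_at was 0.32 and 0.38 above sgTetO and sgTetOmut, 210513_s_at was 0.23 and 0.01 above them, and 211527_x_at was 0.15 and 0.64 above them. BNIP3 and BNIP3L, receptors for the removal of mitochondria, differed too. The brighter BNIP3 set read 10.46 on sgIL1RN1~3, 10.67 on sgTetO and 10.69 on sgTetOmut, the lowest difference from sgTetO of the 56 sets at -0.20, while its other set was 0.12 and 0.03 above the controls. BNIP3L was 0.28 and 0.12, and 0.05 and 0.19, above them by its 2 sets. P4HA1 and P4HA2, which hydroxylate collagen, were -0.11 and -0.05, and 0.11 and 0.01, away from sgTetO and sgTetOmut. MXI1, an antagonist of MYC, was 0.02 and -0.03 away.

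Over the 14 genes with more than 1 set, the sets of 7 differed in the sign of their difference from the control mean: SLC2A1, SLC2A3, HK2, PKM, LDHB, BNIP3 and VEGFA. In 6, namely PFKL, ALDOA, TPI1, PGK1, ENO1 and BNIP3L, every set was highest on sgIL1RN1~3, and GAPDH missed this by its 3′ chip set. Of the 17 genes with 1 set, 14 were highest on sgIL1RN1~3, and LDHA and P4HA1 were lowest there. With the mean of all sets as 1 value per gene, 25 of 31 members were highest on sgIL1RN1~3 (80.6%), beside 41.9% of 9159 genes. With the brightest set of each gene the count was 23 of 31 (74.2%), beside 39.5% of 9394 genes, and 0 members were then 1.5-fold above both controls, since the larger ENO1 and GAPDH differences came from dimmer sets.

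The median difference did not follow signal level in an even way. Among sets with a mean log2 value of 10 or more, the 24 member sets had a median of 0.19 over the control mean, beside 0.00 for 2113 named sets. From 8 to 10 it was 0.39 for 12 member sets, beside 0.00 for 2765 named sets, from 6 to 8 it was 0.26 for 11, beside 0.03 for 3634, and below 6 it was 0.25 for 9, beside 0.03 for 5776. The members' median was thus above that of all named sets in each range of level.

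**Figure D3:**
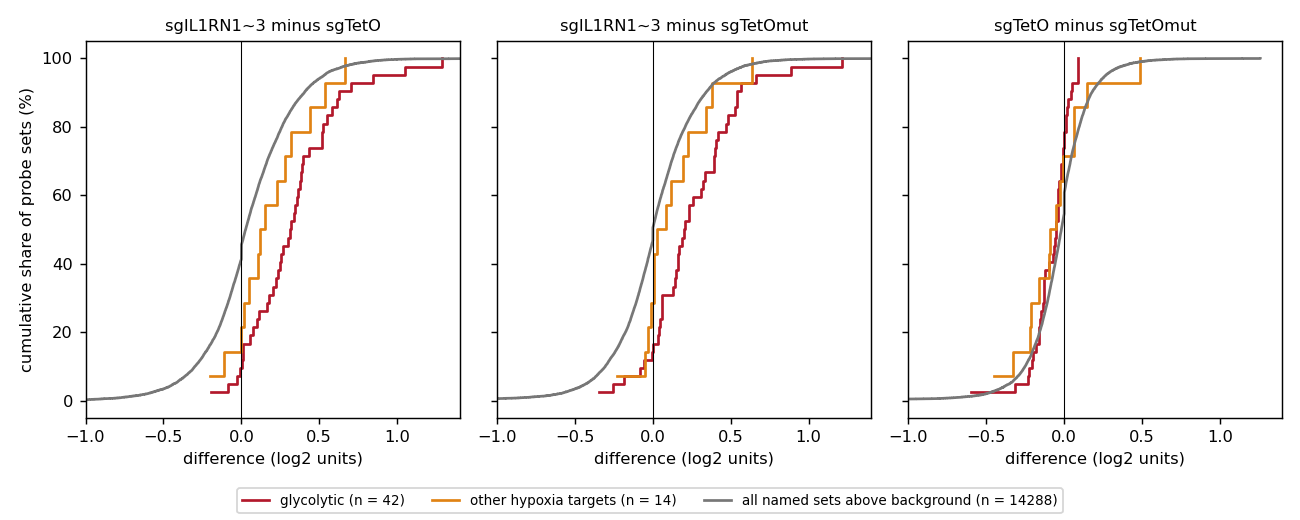
Cumulative share of probe sets (y axis, percent) against the difference in log2 units (x axis) for each pair of arrays, for glycolytic members, other hypoxia target members and all named sets above background. The glycolytic curve lies to the right of all named sets in both comparisons of sgIL1RN1~3, with medians of 0.32 over sgTetO and 0.20 over sgTetOmut, and partly to the left of them for sgTetO minus sgTetOmut.

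Compared with one control at a time, 7 member sets were at least 1.5-fold higher on sgIL1RN1~3 than on sgTetO, where 3.46% of all named sets were, and 0 were lower, where 2.2% were. These were the ENO1 sets 217294_s_at and 216554_s_at, the 5′ chip set of GAPDH, PKM 201251_at, DDIT4, and PGK1 200737_at and 217356_s_at. Against sgTetOmut, 4 sets were higher, where 2.23% of all named sets were, and 0 lower, where 2.09% were. These were the same 2 ENO1 sets, the same GAPDH set and VEGFA 211527_x_at. All 3 pairs of arrays share an array with another pair, so these counts are not independent.

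Between the controls the members differed less, and most were lower with sgTetO. Of the 56 sets, 41 (73.2%) were lower on sgTetO than on sgTetOmut, 13 were higher and 2 were equal. Of all named sets 54.6% were lower. The members' median was -0.05, beside -0.02 for all named sets. Under quantile scaling these were -0.023 and 0.012, and under cyclic loess scaling -0.022 and 0.007. At 1.5-fold, 1 member set was lower, where 1.32% of all sets were, and 0 were higher, where 0.455% were. That set was SLC2A1 201249_at, at 2.95 on sgTetO and 3.55 on sgTetOmut. It was not above background on sgTetO, and against the highest background set sgTetOmut was at least 1.11-fold higher. Next came ADM (-0.45), DDIT4 (-0.33), SLC2A3 202499_s_at (-0.32) and GPI (-0.23), while VEGFA 211527_x_at was 0.48 higher on sgTetO. Of the 56 sets 37 (66.1%) were lowest on sgTetO of the 3 arrays, beside 37.8% of all named sets. That count was 27 (48.2%) under quantile scaling, beside 30.5% of all named sets, and 30 (53.6%) under cyclic loess scaling, beside 31.3%. The count highest on sgIL1RN1~3 was 40 (71.4%) under quantile scaling, beside 37.9% of all named sets, and 41 (73.2%) under cyclic loess scaling, beside 37.5%.

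Other genes of the pathway were set beside the members, and their counts beside the 41% of all named sets that were highest and the 33% that were lowest on sgIL1RN1~3. The list of glycogen, pentose phosphate and gluconeogenesis genes had 10 of 15 sets highest on sgIL1RN1~3 and 4 lowest, and a median of 0.30 over the control mean. PGM1, which links glycogen to glycolysis, read 9.44 on sgIL1RN1~3, 8.52 on sgTetO and 8.87 on sgTetOmut. PGLS, an enzyme of the pentose phosphate pathway, was 0.46 and 0.59 above sgTetO and sgTetOmut by set 218388_at and 0.39 and 0.22 by 218387_s_at. TKT, the transketolase of that pathway, was 0.54 and 0.49 above them by 208699_x_at and 0.28 and 0.35 by 208700_s_at. Of these 15 sets 0 were 1.5-fold above both controls, where 1.41% of all named sets were, a share too small to show in so few sets.

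Of the 24 sets of pyruvate and lactate handling, which includes pyruvate dehydrogenase and its kinases, 8 were highest on sgIL1RN1~3 and 12 lowest, with a median of -0.05. GPD2, the mitochondrial glycerol phosphate dehydrogenase, was 0.32 and 0.29 above sgTetO and sgTetOmut. MPC1, a subunit of the mitochondrial pyruvate carrier, was -0.30 and -0.23 away from them. PDK3, a kinase of pyruvate dehydrogenase, was -0.28 and -0.25 away by set 206347_at, -0.35 and -0.08 by 221957_at, and 0.09 and -0.11 by 206348_s_at. Isozymes typical of other tissues, among them PFKFB2, LDHC and PKLR, had 5 sets above background, 0 of them highest on sgIL1RN1~3, and a median of -0.09.

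Genes of oxygen sensing, among them HIF1A and its hydroxylases, had 10 of 23 sets highest on sgIL1RN1~3, 7 lowest and a median of 0.02. The set of VHL, of the ligase that degrades HIF1A, was at background on all 3 arrays and is not among the 23. CITED2, which competes with HIF1A for its coactivators, was 0.83 and 0.56 above sgTetO and sgTetOmut by one set and 0.55 and 0.57 by the other. CUL2, a scaffold of the VHL ligase, was 0.47 and 0.31 above them by one set and -0.36 and -0.28 away by the other. A list of 22 further hypoxia targets, 19 of them measured, had 12 of 39 sets highest on sgIL1RN1~3, 15 lowest and a median of -0.03. TXNIP, an inhibitor of glucose uptake, read 6.46 on sgIL1RN1~3, 5.07 on sgTetO and 6.13 on sgTetOmut by 201008_s_at. By 201009_s_at it was 0.59 and 0.25 above sgTetO and sgTetOmut, and by 201010_s_at 0.42 and 0.18. WSB1, a ubiquitin ligase subunit, was -0.44 and -0.54 away from them by set 201294_s_at. Its other 4 sets were -0.18 to 0.00 away from sgTetO and -0.25 to 0.04 away from sgTetOmut. BHLHE40, a transcriptional repressor, was by set 201169_s_at above background on the controls alone (2.86 on sgIL1RN1~3, 3.62 on sgTetO and 3.86 on sgTetOmut), at least 1.17-fold and 1.37-fold higher there. That was the 1 set of the list counted as 1.5-fold below both controls, and by these bounds it is not. The other BHLHE40 set, 201170_s_at, read 7.91, 7.75 and 7.93 on sgIL1RN1~3, sgTetO and sgTetOmut. The members and these lists were not tested against each other.

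**Figure D4:**
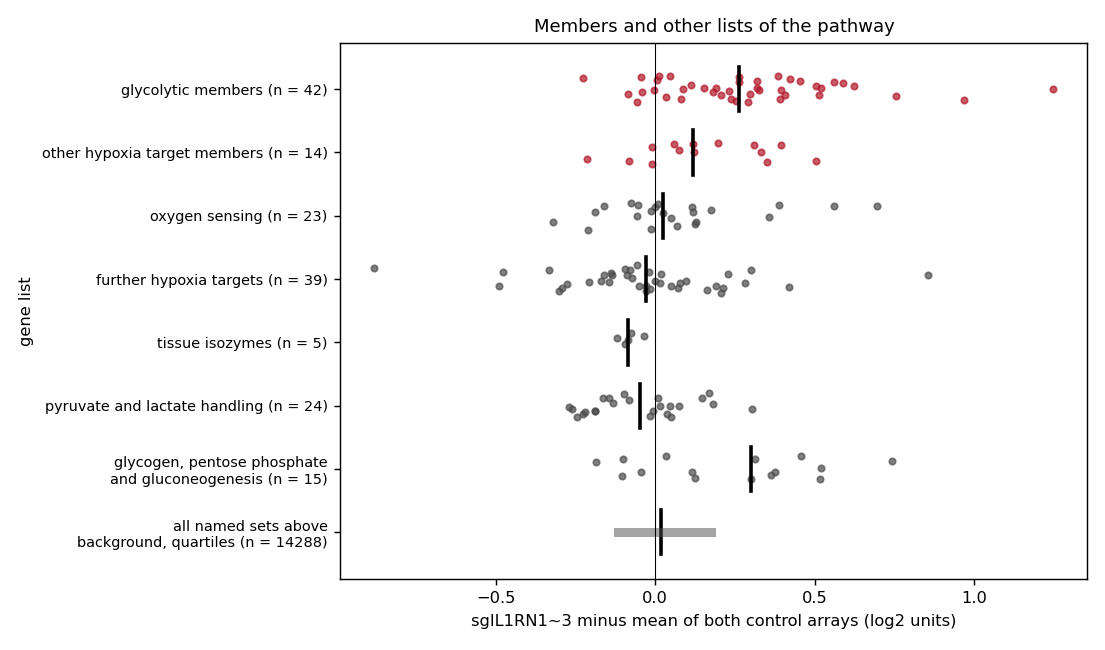
Difference in log2 units (x axis) of the sgIL1RN1~3 array from the mean of both controls for each probe set above background, by gene list (y axis), with black bars at the medians and a grey bar for the quartiles of all named sets. The glycolytic members (median 0.26) and the glycogen and pentose phosphate list (0.30) lie to the right of all named sets (0.02), whereas further hypoxia targets (-0.03) do not.

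The markers fixed for the cell type were those of HEK293T and of cells it could be mixed with. VIM, NEFL, NEFM, KRT18, KRT8 and PAX2 each had a set above background on all 3 arrays, and DLK1 was at background. PTPRC and CD3E of blood, VWF of endothelium, DCN of fibroblasts and ALB of liver were at background on all 3 arrays. Of the sets of these other cell types, 3 of 8 for blood (CD14 and HBB), 2 of 5 for endothelium (CDH5 and PECAM1), 7 of 14 for fibroblasts and muscle (ACTA2, COL1A1, COL1A2 and DES) and 2 of 5 for liver (APOA1) were above background on at least 1 array. Their medians over the control mean were -0.14, -0.16, 0.06 and 0.09. On sgIL1RN1~3 0 of them were 1.5-fold above both controls, where 1.41% of all named sets were, a share too small to show in so few sets. Of the 9 HEK293T marker sets above background, 5 were highest on sgIL1RN1~3 and 3 lowest, with a median of 0.31 over the control mean. Both PAX2 sets (-0.21 and -0.11), the NEFM set (-0.06) and NEFL 221805_at (-0.07) were below the control mean. VIM read 10.39 on sgIL1RN1~3, 9.87 on sgTetO and 9.88 on sgTetOmut.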

How the data were processed

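Total RNA from HEK293T cells was measured on 3 single-channel Affymetrix-type arrays, 1 for each guide label. The deposited values, on a log2 scale as read from their range (1.36 to 14.5), cover 22277 probe sets. Per the submitters' processing notes, affy was the authors' tool. The version, background correction and normalization were not given in the sources used here. After sorting, the columns lay within 0.104 of their rank means, so differences are relative to the bulk of genes. Array number limits the precision.

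Probe sets were named from GEO's platform annotation (19070 with 1 symbol, 1043 with several, 2164 not listed). Background was the highest of 27 Bacillus subtilis sets on each array (3.40, 3.40 and 3.29 on sgIL1RN1~3, sgTetO and sgTetOmut). Sets above it on at least 1 array (14288) entered the counts. Limits were 0.32 log2 units, 1.5-fold and 2-fold. No level was set against that of another probe set except the choice of the brightest set of a gene. The rule for counting sets was tested on simulated data with independent noise, scaled to the median absolute difference between the controls. That noise had a single size for all sets, so sets further apart between the controls were not covered. The sets raised in the simulation lay well above background. The simulation held no difference that runs through a whole array, so it does not bear on one. Named with values were all ENO1 sets, sets past 1.5-fold, the 5 highest and 5 lowest sets of each pair of arrays, members by role and up to 3 sets of each further list. The members and lists were chosen with earlier results of these data known. Promoter sequences are from RefSeq (GRCh38.p14). Scaling alternatives used limma 3.58.1 in R 4.3.3, other steps pandas 2.3.3 and numpy 2.4.6 in Python 3.11.15.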

Additional observations from a re-analysis of the deposited data

How the results depend on the processing

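No paired analysis was possible because each group held 1 array, and for the same reason no replicate could be left out. Of 105 recomputed values 87 kept within 1.5 times of the value reported (for ENO1, within the SD of 0.15 between the control arrays over the member sets) and 18 moved further. Of the medians and ENO1 differences 0 changed sign, which the counts could not do. Values without a minimum level repeated those reported, since all 56 sets were above background already. The 9 recomputed counts 1.5-fold below both controls were 0, as reported. The 6 ENO1 differences kept within that SD under quantile scaling, cyclic loess scaling and 16 added to the linear values. The count of member sets 1.5-fold above both controls (3) was 0 with the brightest set per gene, 1 with the mean of all sets per gene, 1 at 2-fold and 15 at 0.32 log2 units. It was 2 without the chip sets of GAPDH. The count 1.5-fold apart between the controls (1) was 0 with 16 added, with the median as minimum level, with 1 value per gene by either rule and at 2-fold. At 0.32 log2 units it was 4 of 56, where 3.13% of all named sets were higher on sgTetO and 5.96% lower. The median of sgTetO minus sgTetOmut (-0.054) was -0.023 under quantile and -0.022 under cyclic loess scaling. The median of the other hypoxia targets (0.119) was 0.060 with the brightest set per gene and 0.057 against sgTetOmut alone. The counts highest on sgIL1RN1~3 (44 of 56) and lowest on sgTetO (37 of 56) were 23 and 24 of 31 genes by the brightest set and 25 and 23 of 31 genes by the mean of sets, counts over genes instead of sets. Leaving out the chip sets of GAPDH, and every alternative for these last counts, was chosen after seeing the data. The differences carry no error, and sets near background give bounds.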

Other observations

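Among probe sets outside the members, 2 were listed for SLC2A3 together with its close relative SLC2A14 and could not be assigned to either. Set 222088_s_at read 6.42 on sgIL1RN1~3, 6.17 on sgTetO and 6.44 on sgTetOmut, and set 216236_s_at read 3.85, 3.97 and 3.94 on these arrays. The first was lowest on sgTetO, as were the 3 sets listed for SLC2A3 alone, and the second was lowest on sgIL1RN1~3.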
